A study of Mus musculus with 40 samples.

Results

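Stathmins and the structural microtubule-associated proteins of neurons were followed as 10 genes, namely Stmn1, Stmn2, Stmn3, Stmn4, Map1b, Map2, Mapt, Dcx, Tppp3 and Tagln3, of the 55487 genes in the count table. These genes were chosen by symbol and with the use of measured values of the same libraries, and which values is not stated. The contrast of the cell types was taken to be the one used, so for the members it is given as a description, with no test, and the comparisons of each stimulus with the control within a cell type are the tests. Were stimulus values used as well, these tests would not be independent of the choice. Stathmins bind free tubulin dimers and hold back microtubule growth until kinases phosphorylate them, and Stmn2 is known in motor neurons for its part in axon growth and repair. Map1b, Map2, tau (the product of Mapt) and doublecortin (the product of Dcx) bind along the microtubule wall and stabilise it, in growing axons, in dendrites, in mature axons and in young migrating neurons respectively. Tppp3 belongs to a family of proteins that promote tubulin polymerisation, and Tagln3 is a neuronal relative of the actin-binding protein transgelin.

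The study asked whether astrocyte-like cells exposed to inflammatory mediators change, and harm motor neurons plated on them. Both cell types came from mouse embryonic stem cells of a line made from B6.Cg-Tg(Hlxb9-GFP)1Tmj/J mice, in which the Hb9 (Mnx1) promoter drives eGFP, through embryoid bodies given retinoic acid and smoothened agonist. About 200 sorted cells per sample gave polyadenylated RNA in 40 samples, 4 biological replicates (A to D) in each of 10 groups, and 1 replicate stands for a separate vial of stem cells, so that all groups share 1 line. Counts were deposited per gene, and levels are given as CPM, counts relative to the library total after scaling by the TMM factors of edgeR. The ES-astrocytes were expanded with epidermal growth factor and basic fibroblast growth factor, differentiated with forskolin, and then left as control or given for 24 hours IL-1α with TNF-α (il1a+tnfa), complement C1Q with C5 (c1q+c5), IL-1β with IL-6 (il1b+il6) or TGF-β2 (tgfb2). The ES-motor neurons were sorted by their eGFP and plated on ES-astrocytes of the same 5 treatments, after those 24 hours and with the medium left on. The authors name a small risk of leftover mediators and call it likely negligible, given how fast these decay. The methods then give a second sort, about 200 cells a well, which parted co-cultured cells into ES-astrocytes and eGFP-positive ES-motor neurons. No gate for ES-astrocytes is stated, a gate on eGFP would leave in neurons that lack it, and the hours from stimulus to that sort are not stated. The authors' sample sheet puts control and il1a+tnfa under plate index 1 and c1q+c5, il1b+il6 and tgfb2 under plate index 2, in both cell types. For these 3 stimuli the plate index and the difference from the control cannot be told apart.

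Total counts ran from 1510823 to 16054290 (median 4670241.5) in the 20 ES-astrocyte libraries and from 6557 to 19717324 (median 1213482) in the 20 ES-motor neuron libraries. A total under 20% of the median of all 40 (under 491892.1 counts) is called shallow here, and 9 ES-motor neuron libraries were: all 4 il1a+tnfa libraries (112775 to 445874), il1b+il6 B (80315) and D (146775), control C (240859), tgfb2 A (283205) and c1q+c5 A (6557). A count of 0 allowed up to 3 counts, which is 0.230 to 2.04 CPM in ES-astrocytes and 0.153 to 203 CPM in ES-motor neurons. No molecular identifiers are named, so these limits and the intervals given later cover counting error only.

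Marker lists set the labels beside the data. All 9 motor neuron markers had counts in both cell types. In ES-motor neurons their median sum was 1331 CPM (946 to 4945), led by Mnx1 (mean 1055 CPM), the gene whose promoter drives the eGFP. In ES-astrocytes it was 218 CPM (74.1 to 396), led by Lhx4 (mean 182 CPM). The 12 neuron markers summed to a median of 13893 CPM (4527 to 18748) in ES-motor neurons and 3283 CPM (2523 to 4596) in ES-astrocytes, led in both by Gap43 (means 6613 and 1192 CPM). All 12 had counts in ES-astrocytes, so their libraries held RNA of neuronal genes. Of 16 astrocyte markers 13 had counts in ES-astrocytes, with a median sum of 2585 CPM (1298 to 4330.0) led by Fabp7 (mean 1430.2 CPM), against 1036 CPM (203 to 1848) in ES-motor neurons, led by Vim (mean 467 CPM). Gfap, Aqp4 and Aldh1l1, known as markers of mature astrocytes, had no RNA count in any of the 20 ES-astrocyte libraries. These 3 thus do not bear out the label. The other 13 had counts there, but so had 14 of the 16 in ES-motor neurons, Gfap among them. Counts alone thus do not part the cell types by this list. The median sum was higher in ES-astrocytes, with Fabp7 the most abundant. The authors report Fabp7, Slc1a3, Fgfr3, Slc1a2 and Cd44 as higher in ES-astrocytes. By staining they also report GFAP, AQP4 and GLT-1 protein in forskolin-treated cultures. That is a measure of protein, and the values here are of RNA. ES-astrocytes is used below as the authors' name. Cycling-cell markers summed to a median of 1303 CPM (714 to 1731) in ES-astrocytes, led by Top2a (mean 418 CPM), and 7.50 CPM (0 to 23.7) in ES-motor neurons. In the same order of cell types the median sums were 869 CPM (186 to 1800.1) and 205 CPM (17.8 to 873) for 8 neural progenitor markers, both led by Msi1. For 14 interneuron markers they were 253 CPM (94.6 to 568) and 20.4 CPM (0 to 64.6), led by Gata3 and by Lhx1. For 9 fibroblast or mesenchyme markers they were 484 CPM (132 to 1218) and 1.01 CPM (0 to 22.6), both led by Acta2. Oligodendrocyte-lineage, microglia and pluripotent-cell markers stayed low, with medians of 5.87, 0.416 and 0.163 CPM in ES-astrocytes and 10.4, 3.38 and 0 CPM in ES-motor neurons. Neurons and dividing cells are known to express members of the list, and the part of such cells in the levels of ES-astrocytes was not tested. In samples of many cells, fewer cells of a type and less RNA per cell cannot be told apart.

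One library stood apart before any comparison. In ES-astrocyte control A, Dcx was at 113 CPM, Map1b at 427 and Map2 at 49.6, the lowest of the 20 ES-astrocyte libraries for each, while Tagln3 was at 690.5 and Tppp3 at 106, the highest of the 20. The members high there are short genes and those low there are long ones, which led, after the values were seen, to a measure for each library: the percentage of counts on genes with under 2000 bases of exon, among 21951 nuclear protein-coding genes other than the members. It was 24.5% in ES-astrocyte control A, against a range of 11.1% to 24.5% (median 16.0%) over the 20 ES-astrocyte libraries and 9.78% to 21.9% (median 15.2%) in ES-motor neurons. Mitochondrial genes took 1.12% of the counts of that library, the lowest share of the 20. Of the marker lists, the sums for neurons (2523 CPM), interneurons (94.6), astrocytes (1298) and neural progenitors (186) were the lowest of the 20 there. That for fibroblasts or mesenchyme (1218 CPM, from 3 of 9 genes and led by Acta2) was the highest. Whether this library held other cells or other RNA was not tested, and the comparisons in which it enters are given below also without it.

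Read per length, the order of the levels differed between the cell types. The length of a gene is that of all its annotated exons merged, not that of the transcripts made in these cells. Median CPM per kilobase of exon over the 20 ES-astrocyte libraries fell in the order Map1b (443), Stmn1 (358), Stmn2 (170.3), Tagln3 (164), Stmn3 (153), Dcx (42.5), Map2 (14.5), Mapt (8.27), Tppp3 (7.39) and Stmn4 (5.69). In ES-motor neurons the medians fell in the order Map1b (671), Stmn2 (523), Stmn3 (409), Stmn1 (320.2), Tagln3 (288), Dcx (80.4), Map2 (34.4), Mapt (18.6), Tppp3 (12.8) and Stmn4 (12.4). Of neighbours in the ES-astrocyte order, the ranges between the quartiles were apart for Stmn1 and Stmn2, for Stmn3 and Dcx and for Dcx and Map2, and they overlapped for the other 6 pairs. In ES-motor neurons they were apart for Tagln3 and Dcx, for Dcx and Map2 and for Map2 and Mapt, and the other 6 pairs overlapped. By median, Map1b, Stmn1, Stmn2, Stmn3 and Tagln3 stood above the other 5 in both cell types.

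Stmn1, the cytosolic stathmin that dividing cells also make, lies on chromosome 4 (134468320 to 134473843, GRCm38, as all positions here), and the small annotated gene Gm23634 overlaps one of its exons on the same strand. Its level ran from 486 to 972 CPM with a median of 688 in ES-astrocytes and from 203 to 1073 CPM with a median of 615 in ES-motor neurons. The cell types overlapped almost wholly. The log2 ratio of mean CPM, ES-motor neurons over ES-astrocytes, was -0.10, and 0.17 without the 9 shallow libraries, so that its sign rests on them.

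Stmn2, one of the stathmins that a lipid anchor holds on Golgi and vesicle membranes, lies on chromosome 3 (8509360 to 8561606). The 4 control ES-astrocyte libraries had 546, 1113, 746 and 889.8 CPM (A to D, as in all sets of 4 values here) and the 4 control ES-motor neuron libraries 2014, 2325, 2798 and 3836 CPM. Over all treatments it ran from 480.1 to 1885 CPM with a median of 954 in ES-astrocytes, with a mean of 974 ± 342 CPM (SD, n = 20), and from 1351 to 5456 CPM with a median of 2929.6 in ES-motor neurons, with a mean of 3161 ± 1035 CPM (SD, n = 20). Of the members it set the cell types most apart: 18 of 20 ES-motor neuron libraries were above every ES-astrocyte library, 11 of the 11 that are not shallow, and the log2 ratio of means was 1.70 (1.88 without the shallow libraries). The lowest ES-motor neuron value, 1351 CPM in c1q+c5 A, rests on 20 counts.

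Stmn3 and Stmn4, the other membrane-anchored stathmins, lie on chromosome 2 (181306459 to 181314500) and on chromosome 14 (66344296 to 66361680). The level of Stmn3 ran from 27.0 to 489 CPM with a median of 173 in ES-astrocytes and from 209 to 1438 CPM with a median of 465 in ES-motor neurons. Stmn4 was the least abundant of the 10 per length and ran from 0 to 33.1 CPM with a median of 10.9 in ES-astrocytes, where control C had no count (an upper limit of 1.10 CPM), and from 7.70 to 70.4 CPM with a median of 23.8 in ES-motor neurons. Both were higher on average in ES-motor neurons, with log2 ratios of means of 1.30 and 1.54, yet only 7 and 9 of 20 libraries were above all those of ES-astrocytes. Among the 4 stathmins per length, the median share of Stmn1 was 48.5% in ES-astrocytes and 29.0% in the 11 ES-motor neuron libraries that are not shallow. For Stmn2 the shares were 26.9% and 48.0%, for Stmn3 22.2% and 27.2%, and for Stmn4 0.802% and 1.11%. The leading stathmin by median share per length was thus Stmn1 in ES-astrocytes and Stmn2 in ES-motor neurons. In ES-astrocytes this order rests on the merged exon lengths, 1922 bases for Stmn1 and 5602 for Stmn2. By CPM, Stmn2 had the higher median there (954 against 688). The lengths of the transcripts made in these cells were not measured.

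Map1b, which binds microtubules of growing axons, lies on chromosome 13 (99421446 to 99516540) and had the highest CPM of the members. The control ES-astrocytes had 427, 5988, 6995 and 7034 CPM and the control ES-motor neurons 23749, 14156, 19865 and 8971 CPM. Control ES-astrocytes thus held 1 low library, A, and control ES-motor neurons were all above them. Over the 5 treatments the ranges crossed: it ran from 427 to 14412 CPM with a median of 7014 in ES-astrocytes and from 4462 to 23749 CPM with a median of 10638 in ES-motor neurons, with a log2 ratio of means of 0.71 over all libraries and 1.71 in the control libraries, or 1.32 there without ES-astrocyte control A.

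Map2, the microtubule-associated protein of dendrites and cell bodies, lies on chromosome 1 (66175273 to 66442583), where Gm10558 overlaps one of its exons on the other strand, and whether reads were counted by strand is not stated. It ran from 49.6 to 419.5 CPM with a median of 239 in ES-astrocytes and from 118 to 997 CPM with a median of 565 in ES-motor neurons, and 16 of 20 ES-motor neuron libraries were above all ES-astrocyte libraries. Of the 4 that were not, c1q+c5 A (203 CPM) rests on 3 counts, and il1a+tnfa A (118 CPM) and C (392 CPM) are shallow as well. The remaining one, il1b+il6 A (270 CPM, from 4256 counts), is not shallow. Mapt, which encodes the axonal protein tau, lies on chromosome 11 (104231390 to 104332090) and ran from 1.81 to 149 CPM with a median of 62.3 in ES-astrocytes and from 67.6 to 277 CPM with a median of 139.9 in ES-motor neurons. Their log2 ratios of means were 1.06 for Map2 and 1.34 for Mapt.

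Dcx, which encodes the doublecortin of young neurons, lies on chromosome X (143855842 to 143933311). The control ES-astrocytes had 113, 558, 561 and 588 CPM and the control ES-motor neurons 1086, 857, 1197 and 1233 CPM, with library A of the former far below the rest. Over all treatments it ran from 113 to 982 CPM with a median of 538 in ES-astrocytes and from 266 to 1736 CPM with a median of 1017 in ES-motor neurons, and 10 of 20 ES-motor neuron libraries were above all of ES-astrocytes. Tppp3, on chromosome 8 (105467493 to 105471526), ran from 0 to 106 CPM with a median of 13.7 in ES-astrocytes and from 0 to 64.9 CPM with a median of 23.7 in ES-motor neurons. Its 3 ES-motor neuron libraries without a count, c1q+c5 A, il1a+tnfa D and tgfb2 A, are shallow and allow up to 203, 26.0 and 12.4 CPM. Its highest values, in ES-astrocyte control A and in ES-motor neuron il1b+il6 A, rest on 990 and 1021 counts. In ES-astrocytes the 0 of il1b+il6 C allows up to 0.234 CPM. Tagln3, on chromosome 16 (45711230 to 45724608), ran from 103 to 690.5 CPM with a median of 204 in ES-astrocytes and from 147 to 1208 CPM with a median of 357 in ES-motor neurons. The log2 ratios of means were 0.79 for Dcx, 0.46 for Tppp3 and 0.72 for Tagln3, and that of Tppp3 was -0.21 in the control libraries, or 2.17 there without ES-astrocyte control A, so that its sign rests on that library.

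In a fit of all 40 libraries with treatment as a term, edgeR called 14.9% of the 13227 genes tested between the cell types (511 up, 1461 down). A gene counts as called here where its log2 fold change is above 1 or below -1 and its p, adjusted by Benjamini-Hochberg, does not exceed 0.05. No count of members is given for this contrast, since it may have chosen them.

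**Figure D1:**
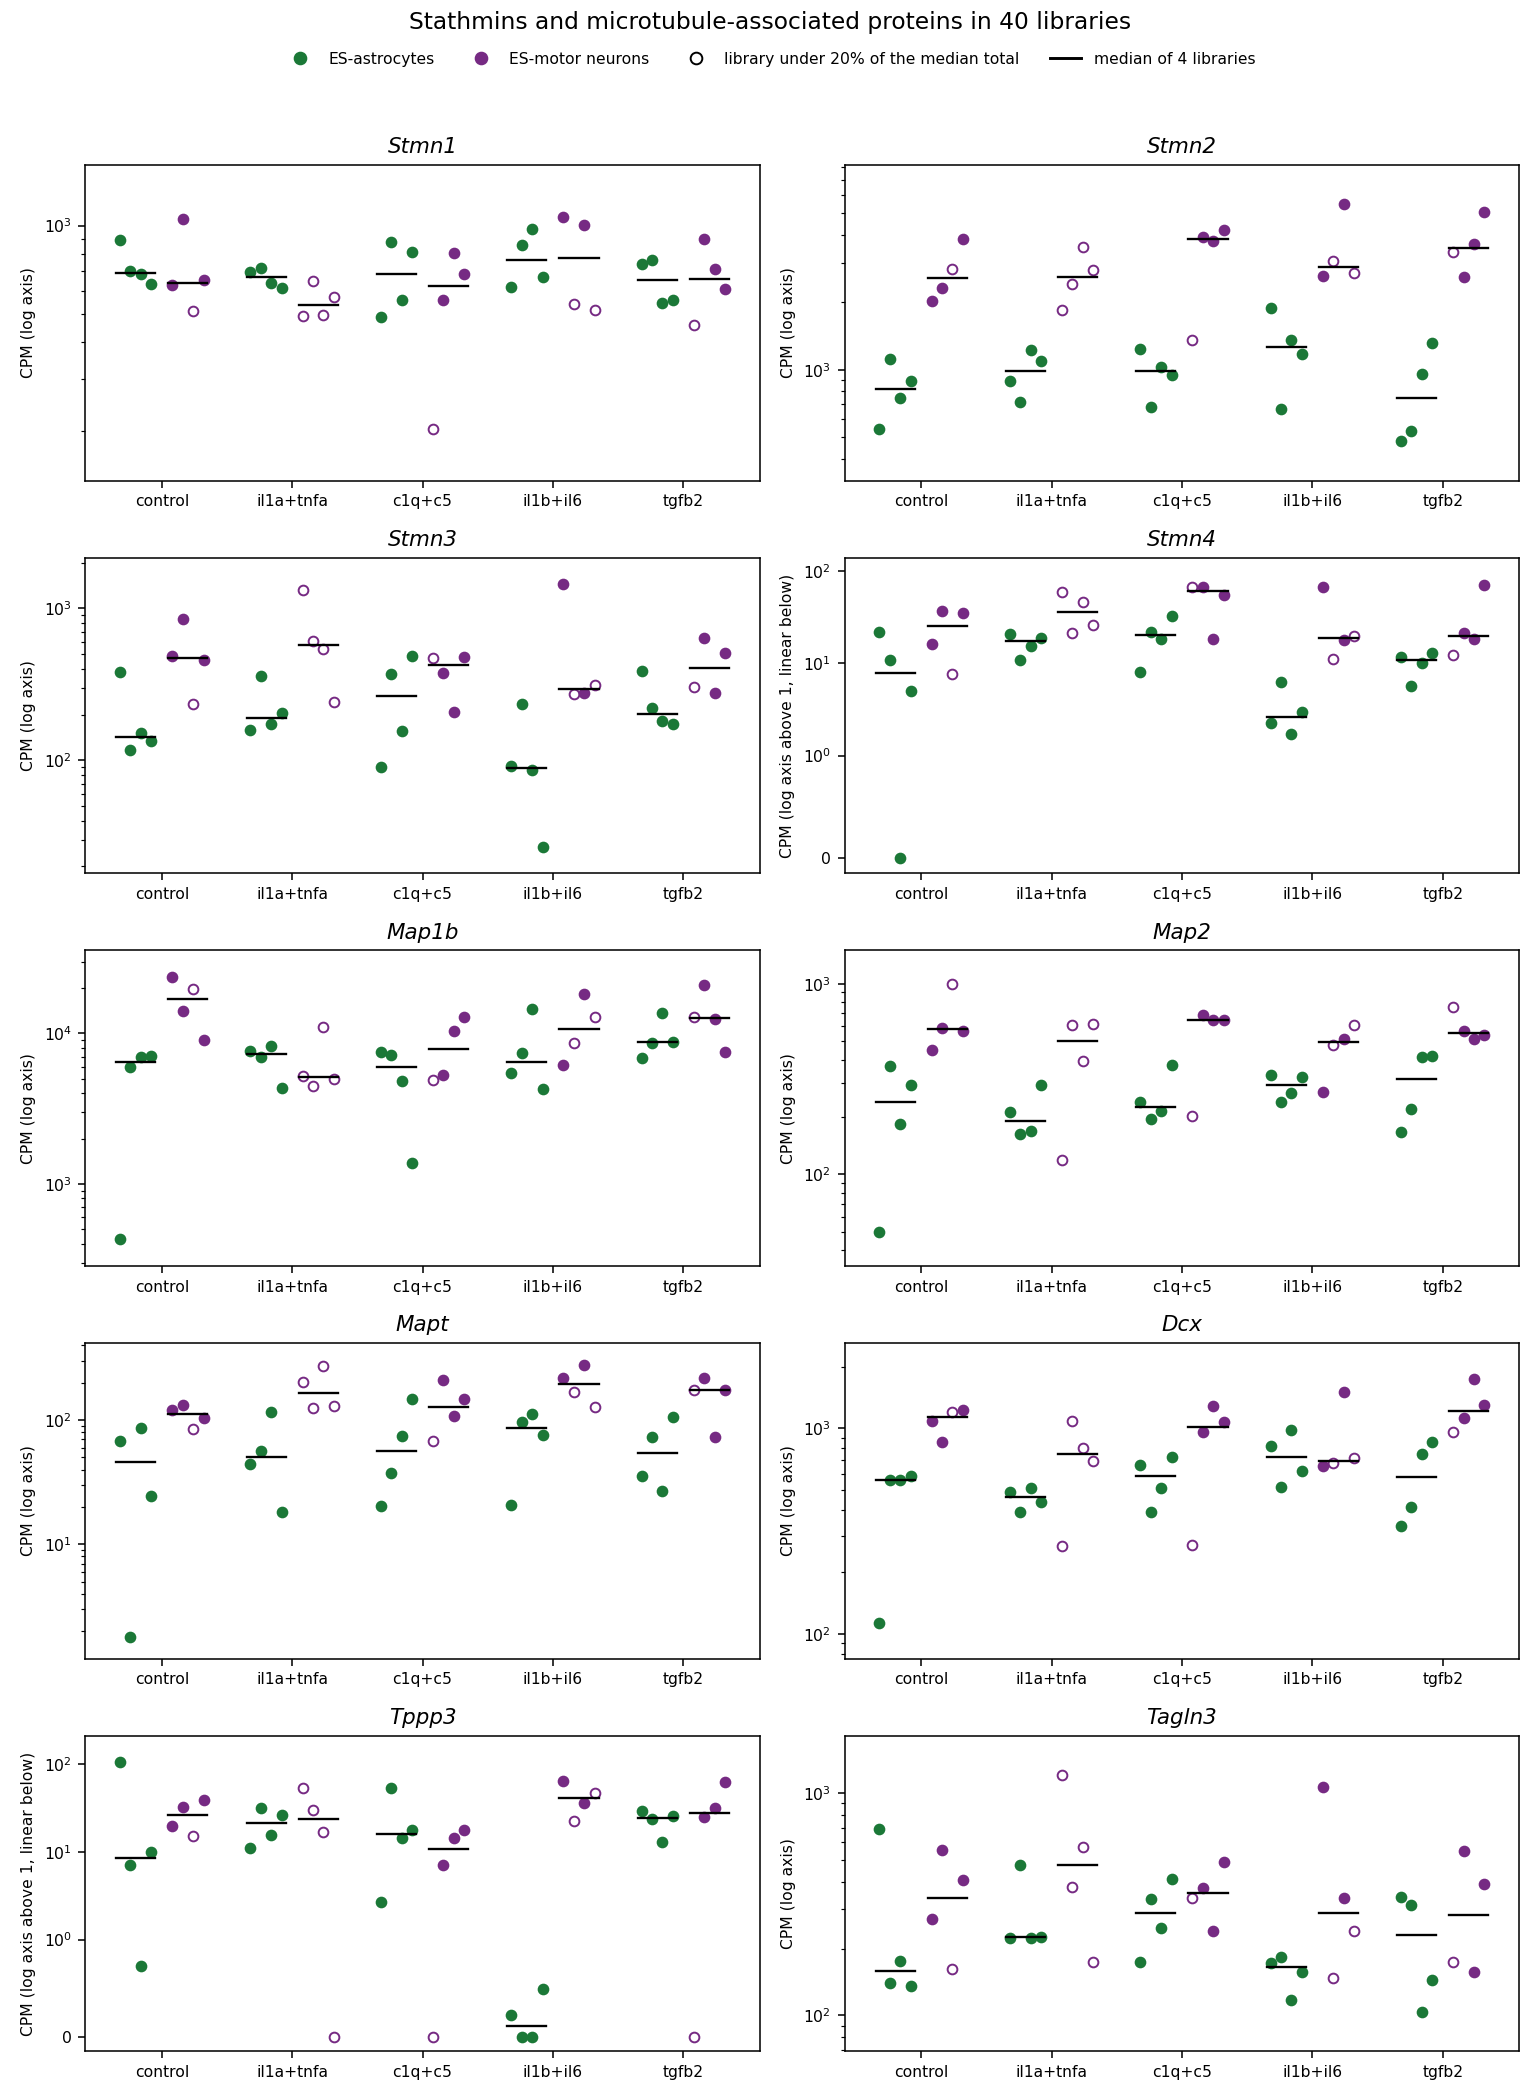
The CPM of each of the 10 genes (y axis, logarithmic, and linear under 1 where a library had no count) is plotted for each of the 40 libraries by stimulus (x axis), with green points for ES-astrocytes, purple points for ES-motor neurons, open points for the 9 shallow libraries and a black line at the median of 4. Tppp3 in the 4 il1b+il6 ES-astrocyte libraries sits between 0 and 0.491 CPM, under every control library.

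The share of counts on short genes moved with several members from library to library. Each member's log2(CPM + 1) was correlated with it within each cell type by Pearson r and Spearman rho, over the 20 ES-astrocyte libraries and the 11 ES-motor neuron libraries that are not shallow, which makes 20 relations. The measure was devised from the values of these members in control A, so the ES-astrocyte relations are given also without it. Adjusted p values are by Benjamini-Hochberg over the 20, and values in pairs are r and then rho. In ES-astrocytes Dcx fell with the share, with r = -0.88 (permutation p = 1e-05, adjusted p = 1.00e-04) and rho = -0.82 (permutation p = 3.00e-05, adjusted p = 0.000500), where 1e-05 is the smallest p that 100000 permutations can give. Without the 2 libraries farthest from the median share they were -0.83 and -0.78, within plate index 1 (8 libraries) -0.93 and -0.81, within plate index 2 (12 libraries) -0.86 and -0.90, and without control A -0.82 (adjusted p = 0.000200) and -0.79 (adjusted p = 0.00140). Dcx thus fell with the share in each set. Tagln3 rose with it in ES-astrocytes, with r = 0.86 (permutation p = 1e-05, adjusted p = 1.00e-04) and rho = 0.80 (permutation p = 5.00e-05, adjusted p = 0.000500). Without the 2 farthest libraries they were 0.75 and 0.73, within the plate indexes 0.93 and 0.83 (index 1) and 0.78 and 0.75 (index 2), and without control A 0.79 (adjusted p = 0.000700) and 0.77 (adjusted p = 0.00210), so that Tagln3 rose in each set.

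Map1b in ES-astrocytes had r = -0.64 (permutation p = 0.00469, adjusted p = 0.00938) and rho = -0.44 (permutation p = 0.0555, adjusted p = 0.0925), but -0.19 and -0.23 without the 2 farthest libraries and -0.33 (adjusted p = 0.242) and -0.34 (adjusted p = 0.227) without control A, so that this relation rests on them. Map2 had r = -0.74 (permutation p = 0.000490, adjusted p = 0.00327) and rho = -0.57 (permutation p = 0.0115, adjusted p = 0.0328), with -0.44 and -0.42 without those 2 and -0.53 (adjusted p = 0.0474) and -0.49 (adjusted p = 0.0681) without control A. Stmn2 had r = -0.65 (permutation p = 0.00178, adjusted p = 0.00593) and rho = -0.63 (permutation p = 0.00320, adjusted p = 0.0107), with -0.67 and -0.65 without the 2, -0.66 and -0.36 within plate index 1, -0.69 and -0.78 within plate index 2 and -0.59 (adjusted p = 0.0217) and -0.58 (adjusted p = 0.0342) without control A. It fell in each set, though less by rank in plate index 1. Stmn3 had r = 0.53 (permutation p = 0.0186, adjusted p = 0.0337) and rho = 0.67 (permutation p = 0.00188, adjusted p = 0.00752), and without control A 0.47 (adjusted p = 0.0775) and 0.63 (adjusted p = 0.0190). Tppp3 had r = 0.60 (permutation p = 0.00399, adjusted p = 0.00938) and rho = 0.70 (permutation p = 0.00106, adjusted p = 0.00530), and without control A 0.50 (adjusted p = 0.0643) and 0.65 (adjusted p = 0.0178). By rank both thus rose with the share also without control A, while r did not pass. For Stmn4 the values were r = 0.42 (permutation p = 0.0659, adjusted p = 0.101) and rho = 0.50 (permutation p = 0.0258, adjusted p = 0.0495), and without control A 0.36 (adjusted p = 0.197) and 0.43 (adjusted p = 0.122). Neither Stmn1, with r = 0.39 (permutation p = 0.0925, adjusted p = 0.132) and rho = 0.39 (permutation p = 0.0913, adjusted p = 0.130), nor Mapt, with r = 0.13 (permutation p = 0.556, adjusted p = 0.556) and rho = 0.03 (permutation p = 0.917, adjusted p = 0.917), passed, and without control A their values were 0.24 (adjusted p = 0.401) and 0.32 (adjusted p = 0.262) for Stmn1 and 0.10 (adjusted p = 0.695) and 0.02 (adjusted p = 0.922) for Mapt.

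In the 11 ES-motor neuron libraries, of which 8 are of plate index 2 and 3, too few for a value, of plate index 1, Dcx had r = -0.85 (permutation p = 0.00110, adjusted p = 0.00468) and rho = -0.72 (permutation p = 0.0167, adjusted p = 0.0416), with -0.64 and -0.52 without the 2 farthest libraries and -0.93 and -0.81 within plate index 2. There Tagln3 had r = 0.83 (permutation p = 0.00265, adjusted p = 0.00757) and rho = 0.68 (permutation p = 0.0246, adjusted p = 0.0495), with 0.73 and 0.53 without the 2 farthest libraries and 0.81 and 0.57 within plate index 2. Stmn4 had r = 0.78 (permutation p = 0.00117, adjusted p = 0.00468) and rho = 0.87 (permutation p = 0.000900, adjusted p = 0.00530), with 0.79 and 0.87 without the 2 farthest libraries and 0.76 and 0.88 within plate index 2. These 3 kept their direction in each set. Stmn3 had r = 0.79 (permutation p = 0.00443, adjusted p = 0.00938) and rho = 0.55 (permutation p = 0.0816, adjusted p = 0.126), with 0.50 and 0.28 without the 2 farthest libraries and 0.84 and 0.55 within plate index 2. Map1b had r = -0.66 (permutation p = 0.0228, adjusted p = 0.0380) and rho = -0.67 (permutation p = 0.0272, adjusted p = 0.0495), with -0.51 and -0.50 without the 2 farthest libraries and -0.69 and -0.81 within plate index 2. The other 5 did not pass in ES-motor neurons: -0.23 and -0.05 for Stmn2 (adjusted p = 0.545 and 0.917, without 2 libraries 0.27 and 0.47, within plate index 2 -0.48 and -0.14), -0.50 and 0.27 for Map2 (adjusted p = 0.156 and 0.559, without 2 libraries 0.63 and 0.60, within plate index 2 -0.68 and 0.17), 0.32 and 0.08 for Stmn1 (adjusted p = 0.419 and 0.909, without 2 libraries 0.18 and -0.08, within plate index 2 0.17 and -0.26), 0.29 and 0.17 for Mapt (adjusted p = 0.446 and 0.720, without 2 libraries 0.47 and 0.40, within plate index 2 0.31 and 0.10) and 0.33 and 0.21 for Tppp3 (adjusted p = 0.401 and 0.675, without 2 libraries 0.06 and 0.10, within plate index 2 0.29 and 0.05). For Stmn2 and Map2, and by rank for Stmn1, the sign thus depended on the libraries taken. A positive sign is the common case for short genes, which enter the share themselves: of the 811 other short genes with a mean of at least 20 CPM in ES-astrocytes 79.3% had r above 0 (78.9% of 715 in ES-motor neurons), and of the 4944 longer ones 50.9% had r below 0 (54.6% of 4549). The signs of the short members therefore set them apart little from other short genes. Whether RNA quality or another property of the libraries sets the share was not tested. The libraries of all treatments entered each relation, and a fit with the share as a covariate is given with the comparisons.

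**Figure D2:**
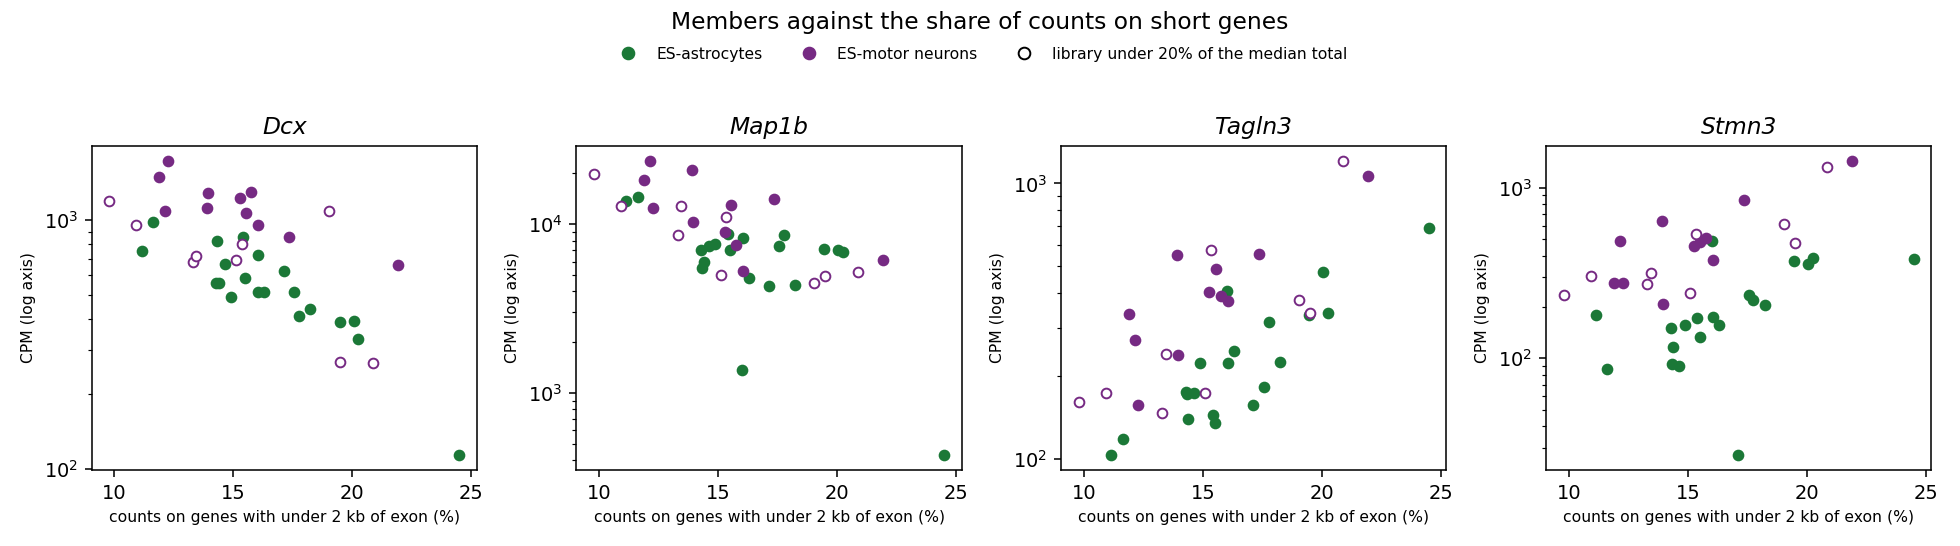
The CPM of Dcx, Map1b, Tagln3 and Stmn3 (y axis, logarithmic) is plotted against the percentage of counts on genes with under 2000 bases of exon (x axis) for all 40 libraries, with green for ES-astrocytes, purple for ES-motor neurons and open points for shallow libraries. Dcx falls and Tagln3 rises along the axis in both cell types, and the rightmost green point, at 24.5%, is control A.

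The comparison of each stimulus with the control asks whether members differ between stimulated and control ES-astrocytes, or between ES-motor neurons plated on them. The 4 comparisons of a cell type share its 4 control libraries, so they are not independent of each other and are given side by side. In the 8 comparisons edgeR's quasi-likelihood test covered 79 member-by-comparison pairs, of which 3 had an unadjusted p under 0.05, and after the Benjamini-Hochberg adjustment over all genes of a comparison the smallest p that edgeR gave a member was 0.990. Standard errors of the log2 fold changes ran from 0.28 to 1.58, which is wide beside the threshold of 1, so that the tests do not show that a member stayed the same. In each comparison the 2 members of smallest p are named.

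In ES-astrocytes given il1a+tnfa, edgeR called 0 of 10 members and 0% of the 10444 genes tested (93 genes, 0 of them members, had an unadjusted p under 0.05), while limma-voom called 0 genes and DESeq2 called 21 with 0 of the members. Stmn2 was at 889, 721, 1222 and 1094 CPM, against 546, 1113, 746 and 889.8 in the control. The groups overlapped, and 3 of 4 stimulated libraries were above the control median. Its log2 fold change was 0.30 (SE 0.33), with an adjusted p of 1.00 by edgeR. Map1b was at 7588, 6993, 8248 and 4333 CPM, against the control values given above, and it overlapped them with 3 of 4 above the control median. Its log2 fold change was 0.45 (SE 0.68), adjusted p 1.00 by edgeR. The other 8 members ranged in log2 fold change from -0.51 (Tppp3) to 0.83 (Stmn4), 5 above 0 and 3 below. Without control A, the lowest control library for both, the log2 fold changes were 0.15 (SE 0.28) and 0.07 (SE 0.28), and the other 8 ranged from -0.38 (Map2) to 1.90 (Tppp3).

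With c1q+c5, edgeR called 0 of 10 members and 0% of the 10865 genes tested (106 genes, 0 of them members, had an unadjusted p under 0.05), while limma-voom called 0 genes and DESeq2 called 37 with 0 of the members. Stmn3 was at 90.4, 370.0, 157 and 489 CPM, against 384, 117, 150.2 and 133 in the control, a log2 fold change of 0.54 (SE 0.58). The stimulated libraries lay on both sides of control A, the highest control library. Stmn4 was at 8.10, 22.2, 18.4 and 33.1 CPM, against 22.2, 10.9, 0 and 4.97, a log2 fold change of 1.15 (SE 1.35), with 4 of 4 libraries above the control median and 1 above all controls. By edgeR both had an adjusted p of 1.00, and the groups overlapped for both. Without control A the log2 fold changes were 1.11 (SE 0.54) and 1.998 (SE 1.55). The other 8 ranged from -0.44 (Tppp3) to 0.68 (Mapt), 6 above 0 and 2 below, or from -0.33 (Map1b) to 1.95 (Tppp3) without control A.

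With il1b+il6, edgeR called 0 of 9 members and 0% of the 10240 genes tested (119 genes, 0 of them members, had an unadjusted p under 0.05), while limma-voom called 0 genes and DESeq2 called 56 with 1 of the members. The 56 genes that DESeq2 called are 0.440% of the 12738 it tested, and 1 of the 9 members it tested, Tppp3, is among them. Stmn2 was at 1885, 671, 1351 and 1174 CPM, with 3 of 4 libraries above all 4 controls and B below 3 of them, a log2 fold change of 0.64 (SE 0.39), adjusted p 1.00 by edgeR, or 0.49 (SE 0.34) without control A. Tagln3 was at 173, 183, 118 and 158 CPM, against 690.5, 140.1, 176 and 135 in the control, a log2 fold change of -0.84 (SE 0.55), adjusted p 1.00 by edgeR. That fall rests on control A: without it the log2 fold change was 0.0943, and 1 of 4 stimulated libraries was below the median of the other 3 controls. The other 7 tested members ranged from -1.50 (Stmn4) to 0.76 (Mapt), 5 above 0 and 2 below, or from -0.64 (Stmn4) to 1.04 (Mapt) without control A.

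With tgfb2, edgeR called 0 of 10 members and 0% of the 10794 genes tested (136 genes, 0 of them members, had an unadjusted p under 0.05), while limma-voom called 0 genes and DESeq2 called 58 with 0 of the members. Map1b was at 6838, 8685, 13749 and 8795 CPM, and 3 of 4 libraries were above all 4 controls, a log2 fold change of 0.94 (SE 0.69). The fourth lay between control B and control C. Map2 was at 166, 219, 415 and 419.5 CPM, against 49.6, 368, 185 and 294 in the control, a log2 fold change of 0.49 (SE 0.56), with 2 of 4 libraries above the control median. By edgeR both had an adjusted p of 1.00. Without control A the log2 fold changes were 0.55 (SE 0.29) and 0.15 (SE 0.40). The other 8 ranged from -0.36 (Tppp3) to 0.46 (Mapt), 5 above 0 and 3 below, or from -0.12 (Stmn2) to 1.98 (Tppp3) without control A.

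Tppp3 was the member whose il1b+il6 and control libraries did not overlap in ES-astrocytes, and it was singled out after its values were seen. It had 0.227, 0, 0 and 0.491 CPM with il1b+il6, 2 counts in the 4 libraries together, and 106, 7.15, 0.731 and 9.94 CPM in the control, 1129 counts together. Libraries B and C of il1b+il6 had no count, which allows up to 0.606 and 0.234 CPM, and D had 1 count, which allows more. That the groups are apart rests on control C, at 0.731 CPM from 2 counts, against il1b+il6 D, at 0.491 CPM from 1 count, where 3 counts would be 1.47 CPM. The highest control value is library A. With 11.1, 32.1, 15.6 and 26.6 CPM in il1a+tnfa, 2.70, 53.8, 14.3 and 17.9 in c1q+c5 and 29.7, 23.9, 13.02 and 25.5 in tgfb2, all 16 ES-astrocyte libraries outside il1b+il6 were above all 4 of il1b+il6. The 8 libraries of c1q+c5 and tgfb2, which share plate index 2 with il1b+il6, ran from 2.70 to 53.8 CPM with a median of 20.9.

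Pooled over libraries, the level of Tppp3 with il1b+il6 was 0.00212 times that of the control (95% Clopper-Pearson interval 0.000256 to 0.00767), and 0.0117 times (0.00140 to 0.0429) without control A. These intervals leave out the spread between libraries and take reads as independent, so they set no bound on the difference between the groups. Of the 10 members 1 had groups apart in that comparison, beside 1.198% of the 21461 genes with any count in its 8 libraries. In the other 7 comparisons 0 members had, beside 0.936% to 1.87% of such genes. The filter on low counts left Tppp3 out of the main edgeR test and of limma-voom in that comparison. Without the filter edgeR gave a log2 fold change of -7.66 (SE 2.14, adjusted p = 0.438), and with all 20 ES-astrocyte libraries in the fit -7.67 (SE 1.63, adjusted p = 0.687). DESeq2 gave -8.03 (SE 1.75, adjusted p = 0.00288). With 1 library left out, 5 of the 8 edgeR fits tested it, and its adjusted p ran from 0.996 to 1.00. In DESeq2 without control A, an alternative added after the data were seen, the log2 fold change was -5.50 (SE 2.04) with an adjusted p of 0.273, and it was not called. The call was thus made by DESeq2 alone, it rests on control A, and none of the 7 edgeR fits that tested Tppp3 made it.

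In ES-motor neurons on ES-astrocytes given il1a+tnfa, where all 4 stimulated libraries are shallow, edgeR called 0 of 10 members and 0% of the 4479 genes tested (143 genes, 2 of them members, had an unadjusted p under 0.05), while limma-voom called 0 genes and DESeq2 called 1 with 0 of the members. Mapt was at 201, 125, 272 and 130.0 CPM, against 119.6, 132, 84.7 and 105 in the control, and 4 of 4 libraries were above the control median. Its log2 fold change was 0.92 (SE 0.41), adjusted p 0.990 by edgeR. Map1b was at 5223, 4462, 10954 and 4983 CPM, against 23749, 14156, 19865 and 8971 in the control, and 3 of 4 libraries were below all controls. The exception was C, above control D. Its log2 fold change was -1.20 (SE 0.53), adjusted p 0.990 by edgeR. The other 8 ranged from -0.48 (Dcx) to 0.99 (Tagln3), 5 above 0 and 3 below.

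On ES-astrocytes given c1q+c5, edgeR called 0 of 10 members and 0% of the 7348 genes tested (322 genes, 0 of them members, had an unadjusted p under 0.05), while limma-voom called 0 genes and DESeq2 called 0 with 0 of the members. Map1b was at 4932, 5306, 10323 and 12918 CPM, against the control values just given, with 4 of 4 libraries below the control median and a log2 fold change of -1.02 (SE 0.57). Libraries C and D overlapped the control. Stmn4 was at 67.6, 67.8, 18.5 and 54.7 CPM, against 16.3, 36.9, 7.70 and 35.3 in the control, a log2 fold change of 0.93 (SE 0.61), with library A resting on 1 count. By edgeR both had an adjusted p of 0.997. The other 8 ranged from -1.10 (Tppp3) to 0.43 (Mapt), 3 above 0 and 5 below.

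On ES-astrocytes given il1b+il6, edgeR called 0 of 10 members and 0% of the 8327 genes tested (98 genes, 1 of them members, had an unadjusted p under 0.05), while limma-voom called 0 genes and DESeq2 called 1 with 0 of the members. Mapt was at 219, 169, 277 and 127 CPM, 3 of 4 libraries above all controls, a log2 fold change of 0.87 (SE 0.39). Library D lay among the controls. Tppp3 was at 64.9, 22.6, 36.1 and 46.8 CPM, against 19.9, 32.6, 15.4 and 39.2 in the control, a log2 fold change of 0.69 (SE 0.59). The groups overlapped, and 3 of 4 libraries were above the control median. By edgeR both had an adjusted p of 1.00, and the other 8 ranged from -0.53 (Map1b) to 0.38 (Tagln3), 5 above 0 and 3 below.

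On ES-astrocytes given tgfb2, edgeR called 0 of 10 members and 1 gene, 0.0126% of the 7947 tested (221 genes, 0 of them members, had an unadjusted p under 0.05), limma-voom called 0 genes, and DESeq2 called 19 genes and 0 members. The gene, named after its values were seen, was Hoxa5, at 273, 110.3, 120.1 and 233 CPM against 20.8, 19.1, 19.2 and 28.7 in the control (log2 fold change 3.05, SE 0.44, adjusted p 0.0103 by edgeR), higher in 4 of 4 libraries. The count of genes fell to 0 without tgfb2 A, tgfb2 D or control C. Mapt was at 174, 217, 72.4 and 175 CPM, with 3 of 4 libraries above all controls and C below them, a log2 fold change of 0.52 (SE 0.37). Stmn2 was at 3348, 2589, 3644 and 5055 CPM, against 2014, 2325, 2798 and 3836 in the control, a log2 fold change of 0.40 (SE 0.33) with 4 of 4 above the control median. By edgeR both had an adjusted p of 0.999, the groups overlapped for both, and the other 8 ranged from -0.35 (Map1b) to 0.32 (Stmn4), 3 above 0 and 5 below.

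Whether a difference from the control differed between the cell types was tested as an interaction in a fit of all 40 libraries. For each of the 4 stimuli edgeR called 0 of 10 members and 0% of 13227 genes. At an unadjusted p under 0.05 there were 544, 741, 922 and 638 genes in the order il1a+tnfa, c1q+c5, il1b+il6 and tgfb2, of which 1, 0, 1 and 0 were members, and DESeq2 called 5, 7, 13 and 5 genes. DESeq2 called 1 member, Tppp3 for il1b+il6, beside 0.0776% of the 16746 genes it tested. There its log2 interaction, ES-motor neurons minus ES-astrocytes, was 9.09 (SE 1.60, adjusted p = 3.25e-05), and edgeR gave 8.45 (SE 1.69, adjusted p = 0.109). Over the edgeR alternatives the adjusted p of that interaction ran from 0.0907 to 0.492. The interaction rests on 2 counts in the il1b+il6 ES-astrocytes, and how each tool treats counts near 0 was not tested. For Map1b with il1a+tnfa the interaction was -1.79 (SE 0.74, unadjusted p = 0.0190, adjusted p = 0.976 by edgeR), and it was chosen after its values were seen. Without ES-astrocyte control A, a fit added after the data were seen, edgeR called 0 members in each interaction and 1, 0, 0 and 0 genes of 13705 in the same order. There the interaction of Map1b was -1.47 (SE 0.64) with an adjusted p of 0.692. For Tppp3 with il1b+il6 edgeR then gave 6.06 (SE 1.53), adjusted p 0.252, and DESeq2 6.61 (SE 1.47), adjusted p 0.00461, so that the call by DESeq2 stayed.

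With the share of counts on short genes as a covariate, an alternative added after the data were seen, edgeR called 0 members in each of the 8 comparisons and kept the sign of the 16 log2 fold changes named above. Members with an unadjusted p under 0.05 were 1, 0, 0 and 1 in ES-astrocytes and 0, 0, 1 and 0 in ES-motor neurons, in the order il1a+tnfa, c1q+c5, il1b+il6 and tgfb2, against 0, 0, 0 and 0 and 2, 0, 1 and 0 without the covariate. The 2 members lost for il1a+tnfa in ES-motor neurons were Mapt, at 0.84 with the covariate, and Map1b, at -0.71. Over all genes the numbers with such a p were 394, 354, 197 and 333 in ES-astrocytes, against 93, 106, 119 and 136 without the covariate. In ES-motor neurons they were 51, 257, 253 and 264, against 143, 322, 98 and 221. Without control A, and with no covariate, edgeR called 0 members in the 4 ES-astrocyte comparisons. There 2, 1, 0 and 1 members had an unadjusted p under 0.05 in the same order, against 0 in each with control A. They were Stmn3 (log2 fold change 0.80, and 0.22 with control A) and Tagln3 (0.99, and 0.04) for il1a+tnfa. For c1q+c5 it was Tagln3 (0.999, and 0.07) and for tgfb2 Stmn3 (0.89, and 0.36). Over all genes the numbers with such a p were 434, 524, 265 and 634, against 93, 106, 119 and 136 with control A.

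**Figure D3:**
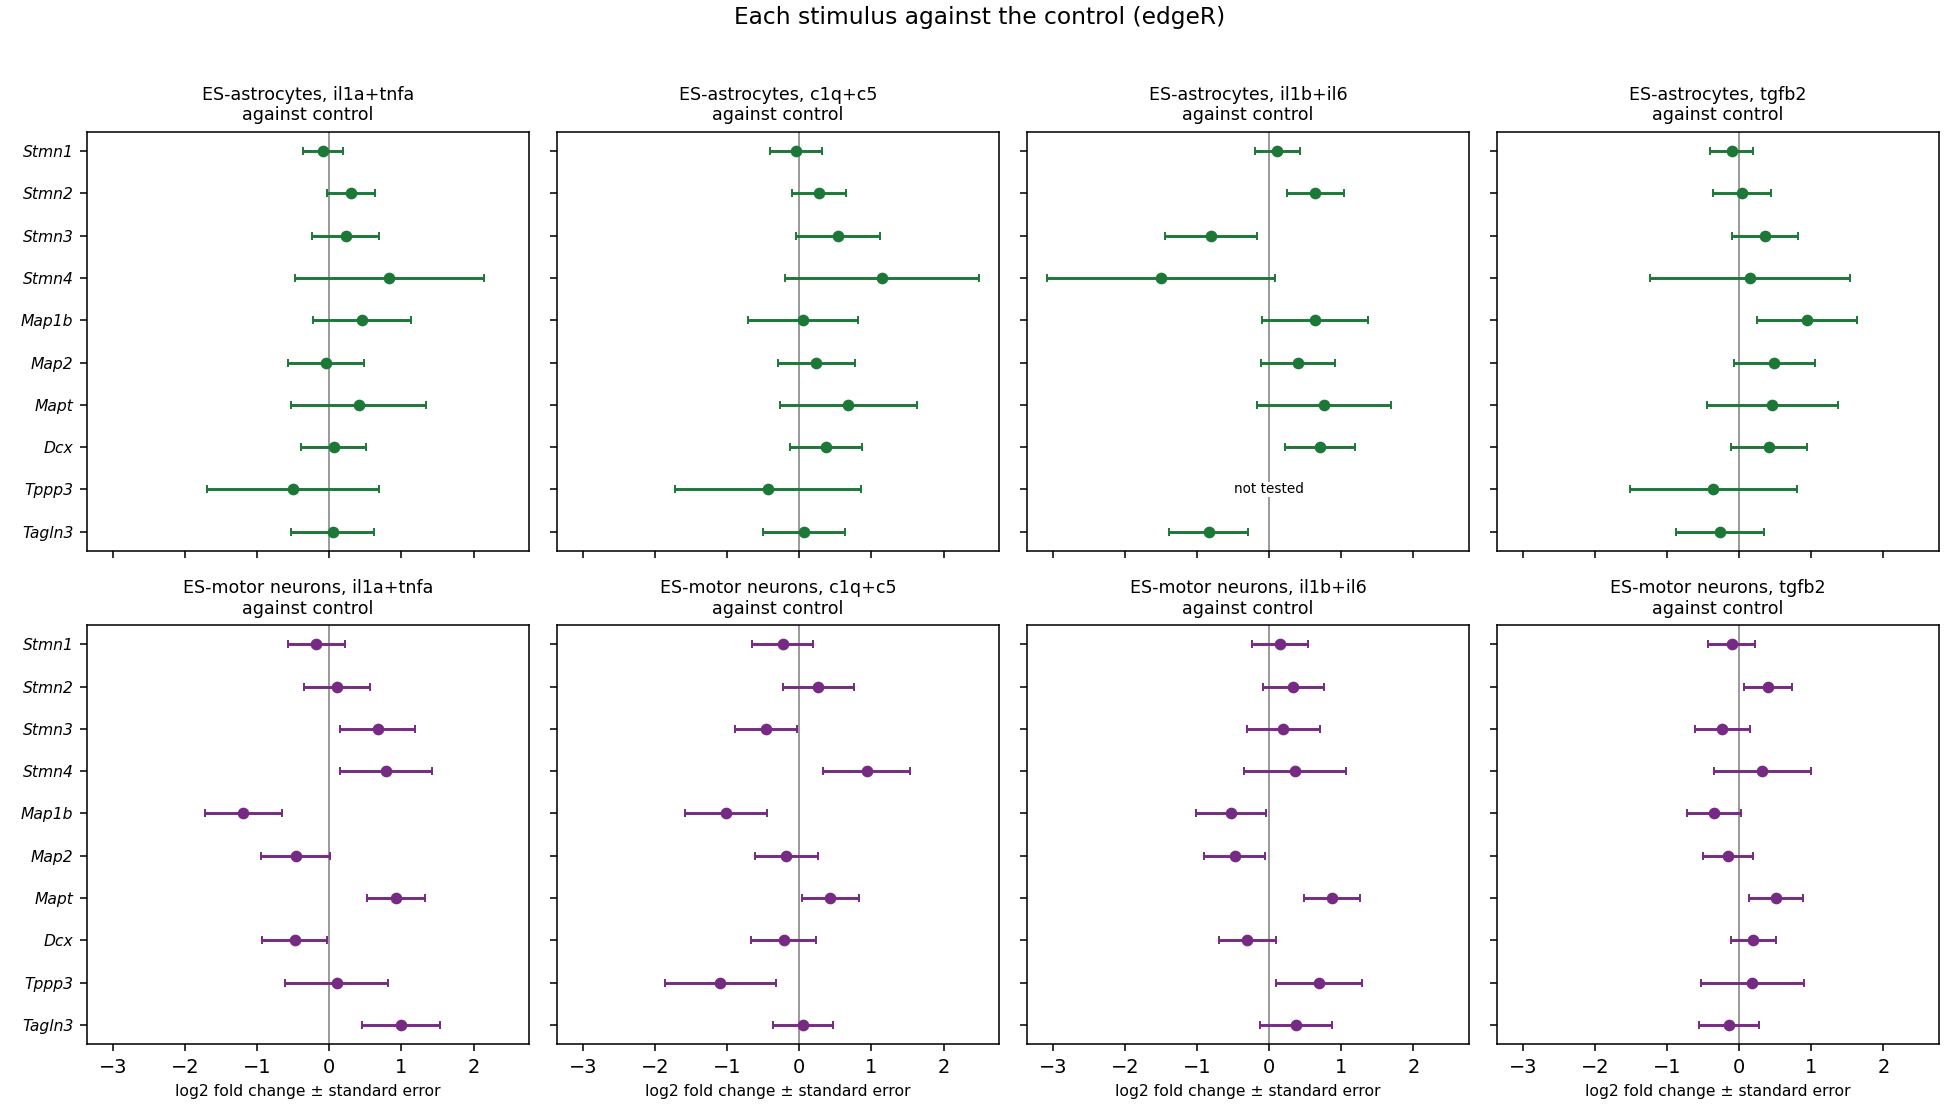
The log2 fold change of each member against the control (x axis, point) with its standard error (bar) is plotted by gene (y axis) for the 8 comparisons, ES-astrocytes in the upper panels and ES-motor neurons in the lower ones, from edgeR with 4 against 4 libraries. The values lie between -1.50 and 1.15, and Tppp3 was not tested for il1b+il6 in ES-astrocytes.

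Other genes of the microtubule system were followed through 7 lists, in the fit of the cell types over 40 libraries, where the median log2 fold change of all 13227 genes was -0.21 (ES-motor neurons over ES-astrocytes), with 3.86% of them called up and 11.05% down. Values for named genes are log2 fold changes, for the 3 of smallest p per list. Of 24 other structural microtubule-associated proteins and doublecortin-like genes, 18 were tested, 2 were called up and 1 down, with a median of 0.47. Among them Dclk1 (2.22, SE 0.20) was up, Mtus2 (-2.37, SE 0.57) down and Map4 (0.80, SE 0.23) not called. Of 19 plus-end proteins, which bind growing microtubule ends, 18 were tested and 2 called down (median 0.18), which is the share of all genes: Nav2 (-2.28, SE 0.27) and Nav3 (-2.22, SE 0.53), while Clasp1 (0.86, SE 0.16) was not called. Of 16 severing and depolymerising proteins 13 were tested and 5 called down (median -0.84), among them Fignl2 (-2.61, SE 0.25) and Fignl1 (-4.21, SE 0.70). Kif18a, called down as well, had no count in the 20 ES-motor neuron libraries. Pooled over libraries, its level in ES-astrocytes was 791-fold that of 3 counts over the ES-motor neuron group. This value leaves out the spread between libraries, so it sets no bound on the difference between the groups.

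Of 21 kinases and phosphatase subunits that act on these proteins 19 were tested and 3 called up (median 0.36), which were Cdk5r1 (1.78, SE 0.26), Ppp2r2b (3.05, SE 0.56) and Mapk9 (1.01, SE 0.30). Of 21 axonal transport motor genes 20 were tested and 3 called up (median 0.56), among them Kif5a (1.74, SE 0.40), while Kif5c (0.71, SE 0.19) and Kifap3 (0.88, SE 0.24) were not called. Mitotic spindle genes went the other way: of 23, all tested, 22 were called down (median -5.99). The median was the same with the 4 genes without an ES-motor neuron count set at 3 counts over the group. Among those called were Nusap1 (-6.70, SE 0.48), Kif11 (-8.57, SE 0.60) and Cenpe (-8.14, SE 0.55). The fitted values of Kif11 and Cenpe rest on 1 ES-motor neuron library each, with 24 and 58 counts. Median CPM in ES-astrocytes and ES-motor neurons were 146 and 0 for Nusap1 and 173 and 777 for Dclk1. Of the 5 transgelin and calponin genes other than Tagln3, all tested, 4 were called down (median -3.54), among them Tagln (-6.39, SE 0.53), Cnn2 (-3.54, SE 0.69) and Cnn1 (-6.39, SE 1.27). Cnn1 had counts in 1 ES-motor neuron library (18 counts), and in ES-astrocytes control A was highest for Cnn1 and Cnn2, at 144 and 312 CPM against means of 5.50 and 31.2 in the other 19. Without control A 3 of the 5 were called (median -2.88), and the 3 named were among them. The fibroblast or mesenchyme markers were lower in ES-motor neurons as well, at a median sum of 1.01 CPM against 484 CPM in ES-astrocytes. The part of such cells in the values of this list was not tested. The direction of the calls over all genes depended on the tool: limma-voom called 2219 up and 888 down (median 0.38), DESeq2 573 and 1266 (median -0.14), and edgeR without control A 559 and 1460. In the order of the lists above limma-voom called 4, 3, 2, 5, 7, 0 and 0 up and 1, 2, 4, 0, 0, 20 and 3 down, and DESeq2 2, 0, 0, 2, 2, 0 and 0 up and 1, 2, 5, 0, 0, 22 and 3 down. The fall of the spindle genes was thus called by each tool. In the 8 stimulus comparisons edgeR called 0 genes of the 7 lists in 712 tests, beside the same percentages of all genes as above, with 20 at an unadjusted p under 0.05. DESeq2 called 1 (Ckap2 for tgfb2 in ES-motor neurons, -4.39, SE 0.98, named after the values were seen) and limma-voom 0, and by edgeR the list medians ran from -0.99 to 0.46.

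The genes whose levels were most like those of Stmn2 and Stmn1 are given as a description, with no p, and points share depth and the share of short genes. Over the 20 ES-astrocyte libraries, among 5976 genes with a mean of at least 20 CPM, the 5 of highest Pearson r with Stmn2 (r, then Spearman rho) were Tfcp2 (0.85, 0.83), Dnajc5 (0.85, 0.86), Peli1 (0.82, 0.83), Sulf2 (0.82, 0.80) and Gm27477 (0.82, 0.77). For Stmn1 they were Gins2 (0.82, 0.73), Mtfr1l (0.80, 0.78), Nans (0.78, 0.81), Nelfcd (0.77, 0.80) and Atp1b3 (0.77, 0.80). Over the 10 group medians, which are set mostly by the cell types, the 5 genes most like Stmn2 among 5674 were Rcor3 (0.99, 0.99), Ina (0.98, 0.98), Dlc1 (0.98, 0.96), Insig1 (0.98, 0.92) and Nefm (0.98, 0.95). The lists of 5 for Stmn2 over libraries and over group medians share no gene, and Ina and Nefm, which encode neuronal intermediate filaments, are in the latter.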

How the data were processed

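RNA was measured in 40 samples of sorted ES-astrocytes and ES-motor neurons. The authors mapped reads with STAR and deposited whole-number counts per Ensembl gene, not normalised, but the sources used here do not give the version of STAR, the counting tool, the strand setting, the build or the annotation. Each of the 40 columns was matched to its sample through the authors' sheet, and no pair of columns was identical. GENCODE M21 (GRCm38) named 55227 of 55487 identifiers, and the rest held 0.117% of counts. The depth per sample and the limit of a count of 0 are given with the report.

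The main test was edgeR 4.0.16 in R 4.3.3, with filterByExpr as the filter, TMM factors, a robust glmQLFit and glmQLFTest, with p adjusted by Benjamini-Hochberg over all genes of a comparison. Each stimulus was fitted with its control alone, 4 against 4, and the interactions and the cell types on 40 libraries. Alternatives were DESeq2 1.42.0 (alpha 0.1), voom with quality weights of limma 3.58.1, RLE factors, no filter, a replicate block, no shallow libraries, all 20 libraries of a cell type in 1 fit, each library left out in turn and, added after the data were seen, the share of counts on short genes as a covariate and fits without ES-astrocyte control A for the interactions, the cell types and DESeq2 with il1b+il6. Of the steps, only the main edgeR fit was run on simulated counts with known changes, for il1b+il6 against control in each cell type. Levels, permutation tests and plots used Python 3.11.15 with scipy 1.17.1, numpy 2.4.6, pandas 2.3.3 and matplotlib 3.10.9.

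The members, the 7 gene lists and the 10 marker lists were chosen with earlier results of these data known. Of 239 list symbols 1, Map11, was not found. The rule for names took all members, the 2 of smallest p in a comparison where none was called, the 3 of smallest p of a gene list, and the 5 genes most like Stmn2 and Stmn1. Genes outside it are said to be so.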

Additional observations from a re-analysis of the deposited data

Results flagged for a closer look

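Within groups of 4 libraries, the highest or lowest value was set apart where its gap to the nearest other value took more of the whole range than Dixon's 95% critical value allows. This held in 14 of the 100 groups of the 10 genes. For normally distributed values chance sets apart about 1 in 20. The CPM were not log-transformed and some rest on few counts, so that rate need not hold here. The genes of a library are also not independent. Of the 14, 5 are ES-astrocyte control A, which was lowest for Map1b (427 CPM) and Dcx (113 CPM) and highest for Stmn3 (384 CPM), Tppp3 (106 CPM) and Tagln3 (690.5 CPM). Also in ES-astrocytes, il1a+tnfa B was highest for Tagln3 (477 CPM).

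Among ES-motor neurons, c1q+c5 A, with 6557 counts in all, was lowest for Stmn2 (1351 CPM, 20 counts) and Map2 (203 CPM, 3 counts). In il1b+il6, A was highest for Stmn3 (1438 CPM) and Stmn4 (67.7 CPM) and C for Stmn2 (5456 CPM) and Dcx (1499 CPM). In tgfb2, D was highest for Stmn4 (70.4 CPM), and in il1a+tnfa, C was highest for Map1b (10954 CPM).

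For Tppp3 the log2 interaction of il1b+il6 with the cell type was 9.09 in DESeq2 (adjusted p = 3.25e-05), while edgeR did not call it (adjusted p = 0.109). It rests on 2 counts in the stimulated ES-astrocytes. Without ES-astrocyte control A it was 6.61 in DESeq2 (adjusted p = 0.00461) and 6.06 in edgeR (adjusted p = 0.252). The causes were not tested.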

How the results depend on the processing

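Against edgeR, DESeq2 called more genes in 7 of the 8 stimulus comparisons and in the 4 interactions, as many (0) for c1q+c5 in ES-motor neurons, and fewer between the cell types (1839 against 1972). In ES-astrocytes it called 21 for il1a+tnfa, 37 for c1q+c5, 56 for il1b+il6 and 58 for tgfb2, against 0 each by edgeR. For ES-motor neurons it called 1 for il1a+tnfa, 1 for il1b+il6 and 19 for tgfb2, against 0, 0 and 1. For the interactions it called 5, 7, 13 and 5 genes in the order il1a+tnfa, c1q+c5, il1b+il6 and tgfb2, against 0. It called 1 member, Tppp3, for il1b+il6 in ES-astrocytes and 1, again Tppp3, in the interaction of il1b+il6. In ES-astrocytes edgeR without the filter and edgeR with all 20 libraries tested Tppp3 and did not call it. The causes of the differences between the tools were not tested.

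Without the filter edgeR called 2 genes for il1a+tnfa in ES-astrocytes, and the ES-motor neurons gave 1 for il1a+tnfa and 5 for tgfb2. The 1 gene called for tgfb2 in ES-motor neurons became 0 with limma-voom, 0 without shallow libraries, 2 with all 20 libraries in 1 fit and 3 with the share of counts on short genes as a covariate. With the replicate block it became 4. A letter marks a vial of stem cells, and whether groups share vials is not stated. Deviations of same-letter libraries of stimulus and control correlated above 0.1 in 2 of 32 pairs (highest 0.39, tgfb2 A with control A in ES-astrocytes), and of the 8 libraries of a comparison 0 to 6 correlated best with their own letter. Between the cell types limma-voom called 3107 genes (2219 up, 888 down), against 1972 (511 up, 1461 down). In each of these the cause was not tested.

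With 1 library left out, genes called ranged from 0 to 2 for c1q+c5 in ES-motor neurons (2 without control D) and from 0 to 2 for tgfb2 in ES-motor neurons, and were 0 throughout in the other 6 comparisons. Members called were 0 in all 64 of these fits. The log2 fold change of Tagln3 for il1b+il6 in ES-astrocytes ran from -1.07 to 0.0943, reversed without control A, also in DESeq2 (0.10). The other 246 recomputed log2 fold changes, of 16 named pairs, kept their direction and stayed uncalled. The size of several moved with 1 library left out. Among these, Stmn3 for c1q+c5 in ES-astrocytes ran from 0.107 to 1.11. In ES-motor neurons Stmn2 for tgfb2 ran from 0.196 to 0.588 and Tppp3 for il1b+il6 from 0.420 to 0.930.

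Without ES-astrocyte control A, chosen after the data were seen, edgeR called 1 gene in the interaction of il1a+tnfa, 0 in the other 3 and 0 members. DESeq2 without it called 31 genes in the interaction of il1b+il6 with 1 member, Tppp3 (log2 6.61, adjusted p = 0.00461). For il1b+il6 in ES-astrocytes DESeq2 then called 104 genes and 0 members, so that its call of Tppp3 there rests on control A.

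RLE factors left every count of genes within 1.5 times that of TMM, but moved the median log2 value of all genes from -0.05 to -0.27 in the interaction of c1q+c5 and from -0.04 to 0.12 in that of il1a+tnfa. Without shallow libraries il1a+tnfa in ES-motor neurons, and its interaction, could not be fitted. Libraries were left out in the 8 stimulus comparisons, and in the interactions and the fit of the cell types only ES-astrocyte control A was.

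Depth limits the ES-motor neurons most: 9 of 20 libraries are shallow, and il1a+tnfa, with 4 shallow libraries, left 4479 genes to test. Tppp3 and Stmn4 are near the limit of detection in several libraries. Plate index and stimulus cannot be told apart for 3 of the 4 stimuli.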
